A study of Mus musculus with 36 samples.

Results

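The 30 genes described here carry out or control the making of sterols and fatty acids. They were picked by name, as rows of both deposited tables of raw read counts, and are 30 of the 49568 gene rows in each table. The sterol branch holds 21 of them, from the thiolase Acat2 to the reductase Dhcr7 in pathway order, with the regulators Insig1 and Srebf2 and the sterol carrier Stard4. The fatty acid branch holds 9, namely the regulator Srebf1, the synthesis enzymes Acly, Acaca and Fasn, the elongase Elovl6, and the desaturases Scd1, Scd2, Fads1 and Fads2. All 30 had enough reads to be tested in both tables, the lowest count of any member in any library being 36 reads (Tm7sf2).

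RNA was sequenced from RAW264.7 cells, a mouse macrophage line grown from a virus-induced tumour, in 36 libraries. In the IFNγ series, cells received 100 µg/ml of the peptide 65–79*SE or 65–79*PE together with 5 ng/ml of IFNγ, and in the Il-4 series the same peptides with 5 ng/ml of Il-4. Culture lasted 72 h, and each series has a PBS group, for which the sources used here do not settle whether the cytokine was added. Each of the 6 groups has 6 replicates. The peptides copy residues 65–79 of the β chain of the human class II molecule HLA-DR. The 65–79*SE peptide carries the shared epitope of the arthritis risk allele HLA-DRB1*04:01, and 65–79*PE carries the protective epitope of HLA-DRB1*04:02. The study asked how these epitopes bear on macrophage polarization towards the M1 state with IFNγ and towards the M2 state with Il-4. All libraries come from a single immortal line, so the model holds no variation between animals.

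Cholesterol is made from acetyl-CoA through the mevalonate pathway, which runs by way of isoprenoids and squalene to lanosterol and then through a series of trimming and desaturation steps. The transcription factor SREBP-2, the product of Srebf2, switches on most genes of this pathway when membranes are short of sterol, and INSIG-1 holds it back in the endoplasmic reticulum when sterol is plentiful. SREBP-1, from Srebf1, has a like role for the fatty acid genes and is itself under the control of the oxysterol receptor LXR. Macrophages are known to lower sterol synthesis under interferons, and the desaturases and Fasn set which lipids their membranes hold.

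Library depth ran from 20666573 to 63155889 counted reads in the IFNγ table and from 17049921 to 30639021 in the Il-4 table. The labels name replicates 1–3 and 4–6 by different schemes, and the methods describe 2 independent experiments, so the 2 sets, with 3 libraries of each group in either, are shown apart throughout. Replication-dependent histone genes summed to between 102 and 233 CPM (a library's counts scaled to a common total) in replicates 1–3 and to between 2529 and 13464 CPM in replicates 4–6, so the sets also differ in how much of this RNA the libraries hold. Macrophage identity was checked on 8 defining markers, which ranged from 35.4 to 6056 CPM, while none of 18 markers of lymphoid, stromal, epithelial, endothelial or other lipid-making cells passed 2.43 CPM. Of those 18, 1 was at 0 in every IFNγ library and 9 in every Il-4 library. The cytokine labels were checked on genes known to respond. In the IFNγ series all 24 interferon response genes tested were higher than in PBS with 65–79*SE in replicates 1–3 and with 65–79*PE in both sets, but 0 of 24 were higher in the 3 libraries labelled 65–79*SE replicates 4–6. Their mean log2 level in those 3 libraries was 2.02 to 2.14 (mean of log2(CPM + 0.5)), beside 2.05 to 2.29 in PBS and 6.12 to 6.47 in the other 9 peptide libraries. This goes against an IFNγ treatment, so each IFNγ result is given by replicate set and these 3 are called the libraries labelled 65–79*SE replicates 4–6. In the Il-4 series 9 or 10 of the 12 Il-4 response genes tested were higher with each peptide in each set. PBS libraries of both series lack the cytokine response, so in every comparison with PBS the cytokine and the peptide cannot be told apart, whereas 65–79*SE and 65–79*PE libraries differ by label in the peptide alone.

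Levels per kilobase of exon in the PBS cells of replicates 1–3 of the IFNγ series place the desaturase Scd2 at the top of the fatty acid branch. This stearoyl-CoA desaturase stood at 65.6 ± 12.6 CPM per kb (SD, n = 3), clear of Fads1, a desaturase of polyunsaturated fatty acids, at 34.6 ± 0.951. Fasn at 32.0 ± 3.53 overlapped in its libraries with both Fads1 and Acly, which stood at 29.6 ± 1.83 and lay below Fads1 in every library. Fads2 at 11.1 ± 0.840 and Scd1 at 9.19 ± 1.63 CPM per kb were lower than these. The elongase Elovl6 was lowest at 2.09 ± 0.414 CPM per kb. In the sterol branch the decarboxylase Mvd led at 50.9 ± 6.89 CPM per kb, followed by the regulator Srebf2 at 19.3 ± 0.764 and the isomerase Ebp at 18.96 ± 0.922, which did not differ beyond their spread. Hsd17b7 at 1.59 ± 0.316 and the reductase Tm7sf2 at 0.703 ± 0.103 closed the order. These orders depend on the exon length used, which joins all exons annotated for a gene. Scd2 and Mvd also led their branches in the PBS cells of replicates 4–6 and in both sets of the Il-4 series. All 30 are protein coding, and 5 lie on chromosome 19 of the mouse build GRCm38. These include the paralogous pair Scd1 (chr19:44394455-44407879, minus strand) and Scd2 (chr19:44293674-44306864, plus strand), and the pair Fads1 (chr19:10182888-10196877, plus strand) and Fads2 (chr19:10062765-10101746, minus strand). Reads were counted where they aligned uniquely, so the split between Scd1 and Scd2 is uncertain to the extent that their sequences match. Exon bases are shared with another gene on the same strand by 4 members (Fdps, Tm7sf2, Srebf1 and Scd2) and with a gene on the opposite strand by 7, and whether counting used strand is not given in the sources used here.

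Because these genes are known as a co-regulated set, the promoters that RefSeq gives for them on GRCm38.p6 were searched for 3 motifs of their usual control. A window of 300 bases, 250 before the start and 50 after it, was at hand for 23 of the 30 members. The sterol regulatory element bound by SREBPs was searched as TCACNCCAC, the CCAAT box as CCAAT and the GC box as GGGCGG, each on both strands and with overlapping matches kept. Only the Hmgcs1 window held the full sterol regulatory element, which is 1 of 23 members (4.35%) against 1.44% of the 27025 genes with a window. CCAAT was present in 19 of 23 members (82.6%) against 41.1% of all, and GGGCGG in 19 of 23 (82.6%) against 38.2%. The background holds every gene with a window, expressed here or not, whereas all members were expressed and protein coding. A background of expressed coding genes alone was not used. A match is a string of letters and not a measured binding site. Below are 200 bases of 4 promoters, from 200 before the start to the start itself, chosen because Hmgcs1 and Idi1 from the sterol branch and Fasn from the fatty acid branch were among the members with the larger falls, while Mvk, which acts between Hmgcs1 and Idi1 in the pathway, was not called in the IFNγ series. Capitals mark the motif matches.
Hmgcs1 (chr13:119690151-119690350, plus strand): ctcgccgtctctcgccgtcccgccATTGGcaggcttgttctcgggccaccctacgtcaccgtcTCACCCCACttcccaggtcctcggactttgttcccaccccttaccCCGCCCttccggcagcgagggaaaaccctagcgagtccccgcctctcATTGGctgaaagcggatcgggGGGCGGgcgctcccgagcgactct
Idi1 (chr13:8885406-8885605, plus strand): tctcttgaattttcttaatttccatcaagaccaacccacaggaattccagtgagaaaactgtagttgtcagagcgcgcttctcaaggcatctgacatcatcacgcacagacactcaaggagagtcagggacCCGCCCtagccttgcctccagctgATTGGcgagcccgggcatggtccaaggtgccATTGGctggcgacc
Mvk (chr5:114444069-114444268, plus strand): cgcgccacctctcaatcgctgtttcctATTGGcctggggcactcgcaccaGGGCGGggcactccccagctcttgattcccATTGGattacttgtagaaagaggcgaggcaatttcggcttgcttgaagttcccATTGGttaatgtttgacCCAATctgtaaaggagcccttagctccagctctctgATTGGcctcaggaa
Fasn (chr11:120824548-120824747, minus strand): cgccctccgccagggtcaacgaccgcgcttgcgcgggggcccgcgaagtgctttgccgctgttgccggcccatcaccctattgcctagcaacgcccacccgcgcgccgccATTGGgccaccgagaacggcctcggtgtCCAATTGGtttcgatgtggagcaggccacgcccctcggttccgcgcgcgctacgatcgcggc
Within these 200 bases Hmgcs1 holds 1 sterol regulatory element, 2 CCAAT matches and 2 GC boxes. Idi1 holds 2 CCAAT matches and 1 GC box, Mvk 5 and 1, and Fasn 3 CCAAT matches, of which a pair overlaps, and no GC box. The 4 promoters were picked by how their RNA changed, and whether the matches bear on the changes was not tested.

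**Figure D1:**
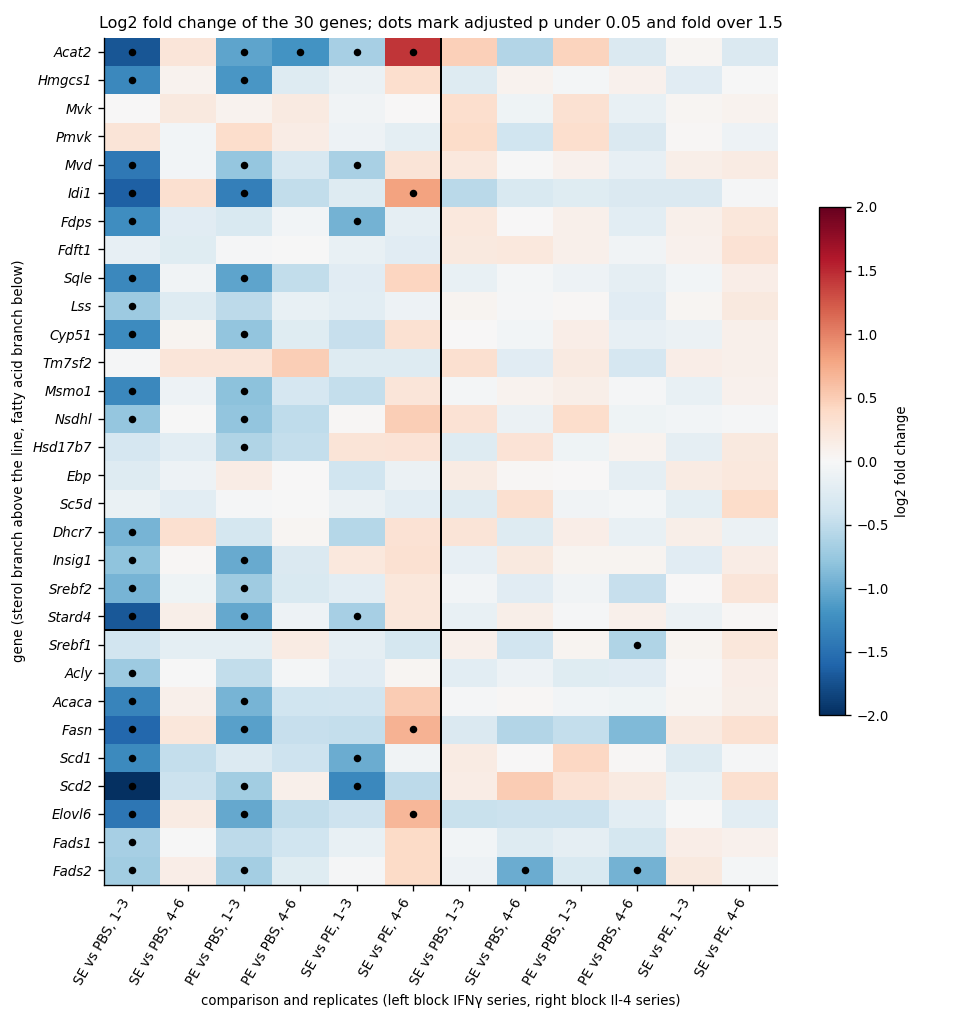
Log2 fold change (colour scale) of each of the 30 genes, in rows with the sterol branch above the fatty acid branch, in the 12 comparisons in columns, the IFNγ series left and the Il-4 series right. Blue marks lower and red higher values in the group named first and a dot marks a called gene, and the column of 65–79*SE against PBS in replicates 1–3 of the IFNγ series holds 14 sterol and 8 fatty acid dots while that of replicates 4–6 holds none.

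In replicates 1–3 of the IFNγ series, cells given 65–79*SE had lower levels of most genes of both branches than PBS cells. A gene was called at an adjusted p under 0.05 over all 16845 genes tested and a fold change over 1.5, by edgeR's quasi-likelihood test. By this rule 14 of 21 sterol genes and 8 of 9 fatty acid genes fell, and none rose. Over all genes tested 10.2% were called lower. The median log2 fold change was -0.93 in the sterol branch and -1.27 in the fatty acid branch, beside -0.04 over all genes. In bulk RNA, fewer cells of a kind and less RNA per cell cannot be told apart.

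At the entry to the mevalonate pathway, Acat2, which joins acetyl-CoA units, stood at 20.99, 19.6 and 17.8 CPM in PBS and at 5.60, 5.78 and 6.39 CPM with 65–79*SE, a log2 fold change (± SE) of -1.72 ± 0.12 (adjusted p = 7.9e-10). Hmgcs1, the synthase that makes HMG-CoA, had 47.2, 40.1 and 41.0 CPM in PBS and 17.5, 16.0 and 18.8 CPM with 65–79*SE, a log2 change of -1.29 ± 0.09 (adjusted p = 1.2e-09). For both genes every peptide library lay below every PBS library.

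The next steps did not move together. Mvk and Pmvk, the kinases that phosphorylate mevalonate, had log2 changes of 0.00 ± 0.09 and 0.26 ± 0.10 and were not called. Mvd, which makes isopentenyl diphosphate, fell from 80.5, 97.4 and 106 CPM to 34.7, 34.9 and 36.02 CPM, a log2 change of -1.42 ± 0.08 (adjusted p = 2.1e-11). Idi1, its isomerase, fell from 30.5, 23.4 and 21.3 CPM to 7.54, 7.55 and 9.14 CPM, a log2 change of -1.63 ± 0.12 (adjusted p = 1.5e-09). The PBS and peptide libraries did not overlap for either gene. Fdps, which builds farnesyl diphosphate, had 21.9, 25.9 and 29.1 CPM in PBS and 9.97, 12.9 and 9.54 CPM with 65–79*SE, a log2 change of -1.25 ± 0.11 (adjusted p = 1.8e-08).

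Between farnesyl diphosphate and cholesterol the same mixture held. Fdft1, squalene synthase, was not called at a log2 change of -0.16 ± 0.10, whereas Sqle, squalene epoxidase, fell from 64.7, 56.4 and 59.1 CPM to 23.1, 23.6 and 27.4 CPM at a log2 change of -1.28 ± 0.09 (adjusted p = 3.1e-10). Cyp51, the lanosterol demethylase, fell from 41.8, 38.4 and 38.7 CPM to 15.2, 16.99 and 17.5 CPM, a log2 change of -1.26 ± 0.08 (adjusted p = 1.0e-10). No peptide library of Sqle or Cyp51 reached the lowest PBS library. Lanosterol synthase Lss (-0.73), the methylsterol oxidase Msmo1 (-1.29), the sterol dehydrogenase Nsdhl (-0.77) and the final reductase Dhcr7 (-0.93) also fell, all values being log2 changes. The remaining late enzymes Tm7sf2 (-0.02), Hsd17b7 (-0.34), Ebp (-0.25) and Sc5d (-0.14) were not called.

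All 3 control and transport genes of the sterol branch fell. Insig1, the brake on SREBP processing and itself a known SREBP target, went from 56.8, 50.4 and 53.3 CPM in PBS to 30.9, 27.6 and 33.6 CPM, a log2 change of -0.80 ± 0.07 (adjusted p = 3.2e-08). Srebf2 went from 133, 141 and 143 CPM to 74.0, 71.1 and 74.2 CPM, a log2 change of -0.93 ± 0.10 (adjusted p = 1.6e-07). Stard4, which carries cholesterol between membranes, went from 23.3, 20.5 and 23.1 CPM to 6.90, 6.16 and 7.55 CPM, a log2 change of -1.70 ± 0.10 (adjusted p = 3.6e-11). The PBS and peptide libraries did not overlap for any of these 3, and with Acat2 and Idi1, Stard4 had the largest falls of the sterol branch in this comparison.

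In the fatty acid branch the 8 enzymes fell and the regulator was not called. Srebf1 had 65.2, 78.9 and 77.2 CPM in PBS and 57.5, 56.0 and 56.2 CPM with 65–79*SE, a log2 change of -0.38 ± 0.09 (adjusted p = 0.0012) that stayed under the fold threshold. Fasn, the fatty acid synthase, fell from 393, 341 and 317 CPM to 116, 123 and 116 CPM, a log2 change of -1.57 ± 0.11 (adjusted p = 1.1e-09). Acly, which makes cytosolic acetyl-CoA from citrate, and Acaca, the acetyl-CoA carboxylase, fell by 0.72 and 1.31 on the log2 scale. The synthesis enzymes thus fell in a row from citrate to palmitate. Elovl6, which lengthens palmitate, fell from 16.0, 13.6 and 10.7 CPM to 5.38, 4.62 and 4.80 CPM, a log2 change of -1.45 ± 0.12 (adjusted p = 9.3e-09).

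The desaturases fell by unequal amounts. Scd2 went from 282, 377 and 416 CPM to 80.8, 89.5 and 99.6 CPM, a log2 change of -1.99 ± 0.14 (adjusted p = 7.6e-10), which is 3.98-fold lower and the largest fall of the 30 in this comparison. Scd1 went from 37.8, 43.5 and 53.6 CPM to 16.7, 19.1 and 20.3 CPM, a log2 change of -1.27 ± 0.12 (adjusted p = 4.9e-08). The polyunsaturated desaturases fell less, with their libraries still apart. Fads1 had 161, 169 and 169 CPM in PBS and 106, 101 and 106 CPM with the peptide, a log2 change of -0.67 ± 0.06 (adjusted p = 1.7e-08). Fads2 had 34.1, 35.7 and 39.5 CPM in PBS and 22.2, 21.8 and 23.2 CPM with the peptide, a log2 change of -0.70 ± 0.11 (adjusted p = 3.2e-05). With all 6 replicates pooled and the set as a term, 7 sterol and 2 fatty acid genes were called in place of 14 and 8.

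Genes of the same pathways outside the 30 were counted in the same comparison. Of 15 other sterol pathway genes tested, 4 were lower and 1 was higher with a median log2 change of 0.02, the protease Mbtps1, which activates SREBPs, being lower at -0.86 ± 0.05. Of 18 other fatty acid genes, 1 was lower and 3 were higher, among them the phosphatidate phosphatase Lpin1 at -1.87 ± 0.16 and the acetyl-CoA carboxylase Acacb at 1.02 ± 0.27, with a median of -0.17. Of 6 LXR targets, 2 were lower and 1 was higher, and the cholesterol exporter Abca1 was the lowest at -1.03 ± 0.18. Proliferation genes, given because growing cells make membrane, had 1 of 18 lower and none higher, with a median of -0.09.

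**Figure D2:**
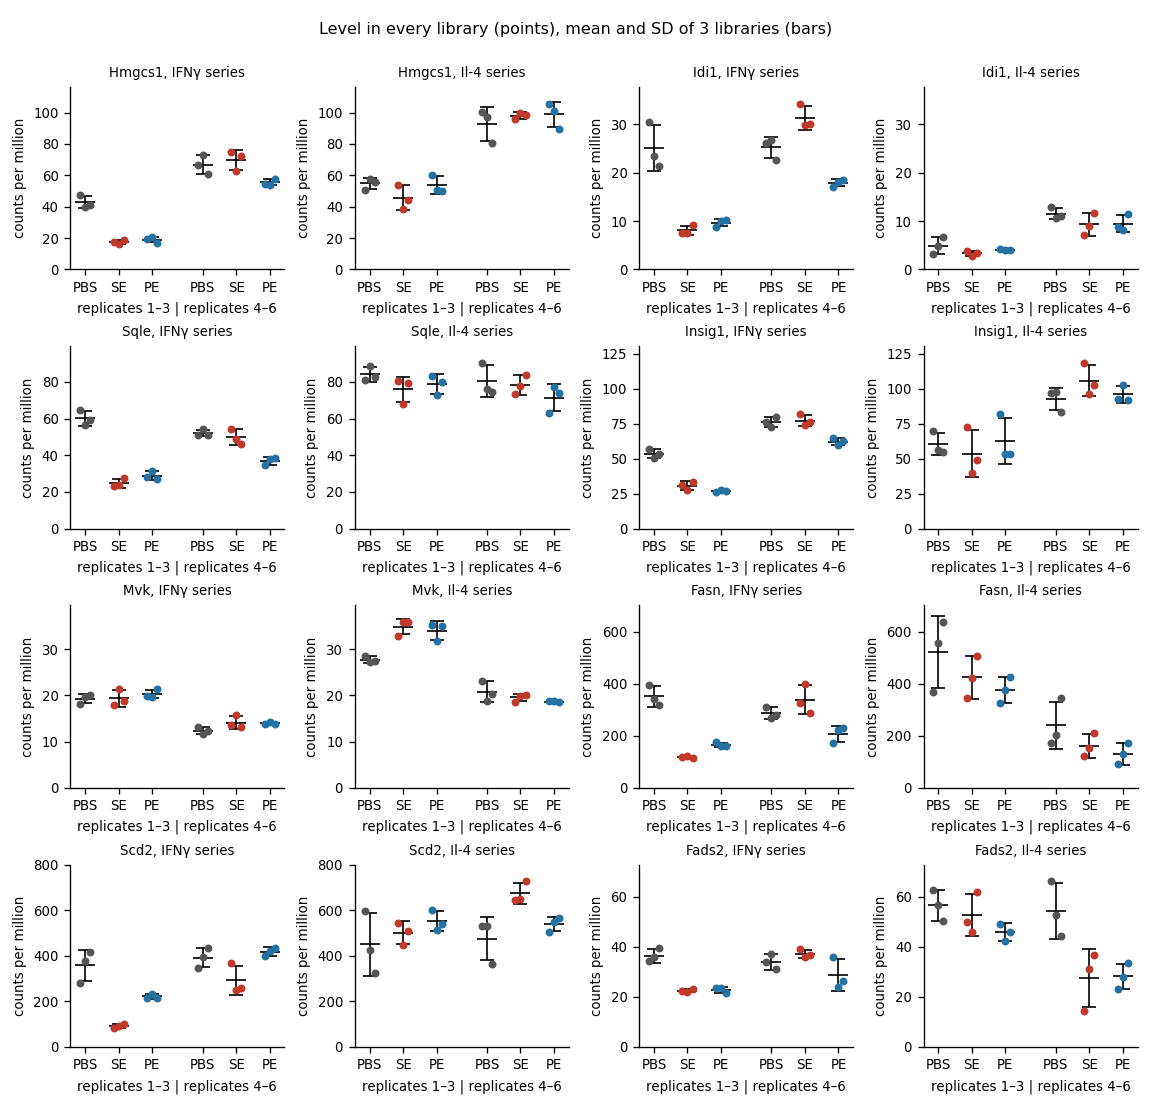
CPM on a linear axis of 8 members, a panel for each gene and series, with every library a point and the mean and SD of 3 libraries as bars, for PBS (grey), 65–79*SE (red) and 65–79*PE (blue) in replicates 1–3 and 4–6. In replicates 1–3 of the IFNγ series each peptide library of Hmgcs1 and Fasn lies below every PBS library, those of Mvk do not, and the libraries labelled 65–79*SE replicates 4–6 overlap the PBS libraries of their set for Hmgcs1 and Fasn.

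In replicates 4–6 the libraries labelled 65–79*SE held levels of the 30 genes near those of PBS. By edgeR 0 of 21 sterol and 0 of 9 fatty acid genes were called, and DESeq2 called 0 as well. At an unadjusted p under 0.05 there were 5 and 4, where 3210 of all 16845 genes tested passed. Over all genes 1.16% were called lower. The median log2 changes were -0.06 and -0.01, beside -0.0033 over all genes. Hmgcs1 stood at 66.2, 72.8 and 60.7 CPM in PBS and 74.7, 62.8 and 72.0 CPM in these libraries. Fasn stood at 311, 269 and 279.9 CPM in PBS and 326, 398 and 288 CPM in the peptide libraries. The ranges of PBS and peptide libraries overlapped for both genes. Scd1 alone passed the adjusted p, at 53.5, 59.5 and 64.6 CPM in PBS and 48.9, 38.1 and 40.6 CPM in the peptide libraries, a log2 change of -0.48 ± 0.12 (adjusted p = 0.024) under the fold threshold. Scd2 had 348, 394 and 433 CPM in PBS and 367, 249.8 and 258 CPM in the peptide libraries, a log2 change of -0.42 ± 0.14 (adjusted p = 0.082). Without replicate 4 of each group 2 fatty acid genes were called.

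For the other genes followed through every library, the libraries of replicates 4–6 lay as follows. Acat2 had 12.7, 11.4 and 11.98 CPM in PBS and 17.3, 11.5 and 13.98 CPM in the libraries labelled 65–79*SE. Idi1 had 26.2, 26.8 and 22.6 CPM in PBS and 34.3, 29.8 and 30 CPM with the peptide label, and Elovl6 had 20.9, 20.5 and 18.6 CPM in PBS and 22.8, 22.5 and 22.2 CPM with the peptide label. The groups overlapped for Acat2, while Idi1 and Elovl6 were above PBS in all 3 peptide libraries without being called. Sqle had 51.2, 54.1 and 51.0 CPM in PBS and 54.5, 49.1 and 46.0 CPM with the peptide label, and Cyp51 had 40.05, 41.7 and 43.7 CPM in PBS and 47.9, 40.2 and 41.9 CPM with the peptide label. Insig1 had 76.0, 72.5 and 79.5 CPM in PBS and 81.6, 73.7 and 75.9 CPM with the peptide label, and Stard4 had 19.3, 19.8 and 18.98 CPM in PBS and 22.5, 19.8 and 20.7 CPM with the peptide label. None of these was called. The groups overlapped for Sqle, Cyp51 and Insig1, and the 3 peptide libraries of Stard4 lay above those of PBS, the lowest by a narrow margin. Srebf2 had 67.9, 59.3 and 62.7 CPM in PBS and 59.1, 70.0 and 49.6 CPM with the peptide label, and Srebf1 had 49.4, 48.9 and 50.5 CPM in PBS and 47.1, 46.7 and 36.6 CPM with the peptide label. Fads1 had 161, 163 and 162 CPM in PBS and 162, 167 and 154 CPM with the peptide label, and Fads2 had 33.7, 37.1 and 30.9 CPM in PBS and 38.9, 35.8 and 36.8 CPM with the peptide label. The groups overlapped for Srebf2, Fads1 and Fads2, and Srebf1 was below PBS in all 3 peptide libraries without being called. Of the companion lists none of the other sterol and fatty acid genes was called, and Abca1 was higher at a log2 change of 0.76 ± 0.16, while 4 of 18 proliferation genes were higher.

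The change from PBS to 65–79*SE was itself tested between the replicate sets. It was lower in replicates 1–3 for 21 of the 30 genes, 13 sterol and 8 fatty acid, with none higher, against 11.2% of all genes. The log2 differences were largest for Acat2 at -1.96 ± 0.17 (adjusted p = 3.1e-08), Idi1 at -1.95 ± 0.17 (adjusted p = 2.6e-08) and Stard4 at -1.81 ± 0.14 (adjusted p = 3.8e-09) in the sterol branch. In the fatty acid branch they were largest for Fasn at -1.80 ± 0.16 (adjusted p = 3.6e-08), Elovl6 at -1.62 ± 0.16 (adjusted p = 2.5e-07) and Scd2 at -1.57 ± 0.19 (adjusted p = 2.8e-06). The set whose 65–79*SE libraries carried the interferon response is the set in which these genes fell. The replicate set moves with this result too, and its part was not tested.

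The 65–79*PE libraries carried the interferon response in both sets, and the members were lower in replicates 1–3. There 12 sterol and 5 fatty acid genes fell and none rose, against 10.1% of all genes called lower. The median log2 changes were -0.71 in the sterol branch and -0.68 in the fatty acid branch, beside -0.04 over all genes. Against the PBS values given above, Idi1 stood at 8.84, 10.1 and 10.2 CPM with 65–79*PE, a log2 change of -1.37 ± 0.12 (adjusted p = 2.5e-08). Hmgcs1 stood at 19.3, 20.6 and 17.1 CPM, a log2 change of -1.17 ± 0.09 (adjusted p = 7.4e-09). Acat2 had 8.84, 9.33 and 9.998 CPM and a log2 change of -1.05 ± 0.12 (adjusted p = 6.8e-07). All 9 of these libraries lay below every PBS library of their gene. Sqle had 28.2, 31.6 and 27.0 CPM (-1.05 ± 0.09 on the log2 scale), Cyp51 23.7, 23.5 and 21.3 CPM (-0.80 ± 0.08) and Stard4 10.7, 12.2 and 9.83 CPM (-1.03 ± 0.09). Insig1 had 26.2, 27.2 and 26.5 CPM, a log2 change of -1.01 ± 0.07 (adjusted p = 2.3e-09), and Srebf2 had 85.4, 83.8 and 85.7 CPM, a log2 change of -0.71 ± 0.10 (adjusted p = 6.3e-06). Mvd (-0.77), Msmo1 (-0.82), Nsdhl (-0.79) and the sterol ketone reductase Hsd17b7 (-0.60) completed the 12. Mvk (0.07), Pmvk (0.36), Fdps (-0.30), Fdft1 (-0.02), Lss (-0.52), Tm7sf2 (0.24), Ebp (0.14), Sc5d (-0.02) and Dhcr7 (-0.35) were not called.

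In the fatty acid branch with 65–79*PE, Fasn stood at 174, 159.8 and 162 CPM, a log2 change of -1.08 ± 0.11 (adjusted p = 2.5e-07), and Elovl6 at 6.28, 7.08 and 6.37 CPM, a log2 change of -1.03 ± 0.12 (adjusted p = 9.7e-07). Acaca went from 89.1, 70.1 and 68.6 CPM in PBS to 39.6, 38.4 and 41.4 CPM, a log2 change of -0.93 ± 0.09 (adjusted p = 5.9e-08). Every library of the 3 synthesis genes lay below PBS. Scd2 stood at 213, 233 and 216 CPM (-0.70 ± 0.14, adjusted p = 3.6e-04) and Fads2 at 23.5, 23.3 and 21.4 CPM (-0.68 ± 0.11, adjusted p = 5.3e-05). Not called were Scd1 at 38.3, 39.7 and 33.3 CPM (-0.28 ± 0.12), Srebf1 at 68.9, 61.9 and 61.7 CPM (-0.20 ± 0.09), Fads1 at 114, 118 and 117 CPM (-0.52 ± 0.06) and Acly at -0.50 ± 0.06. Scd1 and Srebf1 libraries overlapped those of PBS. Leaving out replicate 3 of each group lowered the fatty acid count from 5 to 3, the calls of Scd2 and Fads2 being lost, and pooling all 6 replicates gave 8 sterol and 3 fatty acid genes. Of the companions, 2 of 15 other sterol genes were lower, and 3 of 18 other fatty acid genes were lower and 2 higher. Of 6 LXR targets 1 was lower, Abca1 at -2.01 ± 0.20, and of 18 proliferation genes 2 were lower.

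In replicates 4–6 with 65–79*PE most members stayed under the fold threshold. The only gene called was Acat2, from 12.7, 11.4 and 11.98 CPM in PBS to 4.75, 5.33 and 5.69 CPM, a log2 change of -1.19 ± 0.13 (adjusted p = 4.8e-07), in a comparison that called 4.77% of all genes lower. On the adjusted p alone 11 sterol and 5 fatty acid genes passed, as did 4338 of all 16845 genes tested. The median log2 changes were -0.25 and -0.40, beside -0.00093 over all genes, and without replicate 6 of each group 2 sterol genes were called. Idi1 stood at 17.1, 18.2 and 18.5 CPM (-0.49 ± 0.12, adjusted p = 0.0034), Sqle at 34.4, 37.7 and 38.5 CPM (-0.50 ± 0.08, adjusted p = 1.7e-04) and Fasn at 172, 221 and 229 CPM (-0.47 ± 0.11, adjusted p = 0.0036). All 9 of these values lay below the PBS values of the same set. Hmgcs1 had 54.7, 54.1 and 57.9 CPM, a log2 change of -0.26 ± 0.09 (adjusted p = 0.039). Cyp51 had 35.3, 34.8 and 35.5 CPM (-0.25 ± 0.08), Insig1 64.5, 59.4 and 62.4 CPM (-0.29 ± 0.07) and Stard4 17.9, 17.1 and 19.1 CPM (-0.10 ± 0.09). Srebf2 had 46.0, 49.5 and 57.3 CPM (-0.31 ± 0.10) and Srebf1 53.2, 56.5 and 57.0 CPM (0.17 ± 0.09). The 2 regulators stood on different sides of PBS, neither being called. Elovl6 had 15.1, 14.5 and 13.2 CPM (-0.49 ± 0.11), Fads1 114, 130.0 and 125 CPM (-0.40 ± 0.06) and Fads2 35.8, 23.9 and 26.2 CPM (-0.25 ± 0.11). Scd1 had 45.2, 42.3 and 46.2 CPM (-0.41 ± 0.12) and Scd2 398, 421 and 436 CPM (0.10 ± 0.14), and the Scd2 libraries overlapped those of PBS. Of the companions, 1 of 15 other sterol genes was lower, and 1 of 18 other fatty acid genes was lower and 1 higher. The lower fatty acid gene was Lpin1, at a log2 change of -0.59 ± 0.15. Of 6 LXR targets 1 was higher. Among proliferation genes 7 of 18 were higher and 2 lower.

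The change with 65–79*PE differed between the sets for 6 of the 30 genes, all lower in replicates 1–3, against 3.63% of all genes. They were Hmgcs1 at -0.91 ± 0.13 (adjusted p = 2.9e-04), Idi1 at -0.88 ± 0.17 (adjusted p = 0.0025), Insig1 at -0.71 ± 0.10 (adjusted p = 3.2e-04), Stard4 at -0.93 ± 0.13 (adjusted p = 3.0e-04), Fasn at -0.62 ± 0.16 (adjusted p = 0.017) and Scd2 at -0.79 ± 0.19 (adjusted p = 0.013) on the log2 scale. Here the interferon response was present in both sets.

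**Figure D3:**
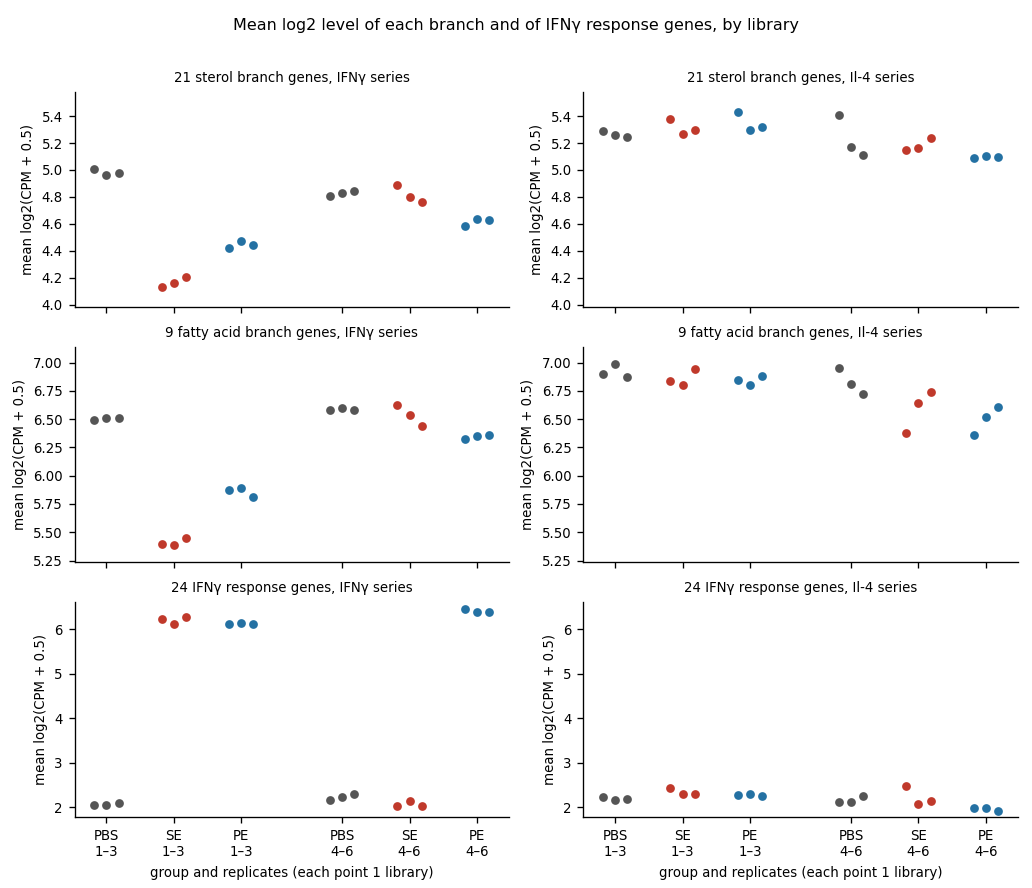
Mean of log2(CPM + 0.5) over the 21 sterol genes, the 9 fatty acid genes and the 24 IFNγ response genes in every library (points), with PBS grey, 65–79*SE red and 65–79*PE blue, on axes that do not start at 0. In replicates 1–3 of the IFNγ series the sterol mean is 4.96 to 5.01 in PBS, 4.42 to 4.48 with 65–79*PE and 4.13 to 4.21 with 65–79*SE, and in replicates 4–6 the libraries labelled 65–79*SE (4.76 to 4.89) overlap PBS (4.80 to 4.84).

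The peptides were compared with each other where both came with IFNγ, in replicates 1–3. Of the 30 genes, 6 were lower with 65–79*SE than with 65–79*PE, 4 sterol and 2 fatty acid, against 1.23% of all genes called lower. The median log2 differences were -0.23 in the sterol branch and -0.38 in the fatty acid branch, beside 0.0021 over all genes. Fdps had 9.97, 12.9 and 9.54 CPM with 65–79*SE and 19.2, 20.9 and 22.3 CPM with 65–79*PE, a log2 difference of -0.95 ± 0.11 (adjusted p = 6.5e-06). Mvd had 34.7, 34.9 and 36.02 CPM with 65–79*SE and 52.3, 56.1 and 57.6 CPM with 65–79*PE, a log2 difference of -0.65 ± 0.08 (adjusted p = 1.1e-05). Stard4 differed by -0.67 ± 0.10 (adjusted p = 1.0e-04) and Acat2 by -0.66 ± 0.12 (adjusted p = 8.6e-04) on the log2 scale. The libraries of the 2 peptides were apart for each of these 4 genes. Scd2 differed most, with 80.8, 89.5 and 99.6 CPM against 213, 233 and 216 CPM, a log2 difference of -1.30 ± 0.14 (adjusted p = 3.0e-06), and Scd1 had 16.7, 19.1 and 20.3 against 38.3, 39.7 and 33.3 CPM, a log2 difference of -0.99 ± 0.12 (adjusted p = 1.1e-05). Both stearoyl-CoA desaturases were thus lower with 65–79*SE in every library. For 18 of the 30 genes the 95% interval of the difference lay inside a 1.5-fold change in either direction. They include Hmgcs1 (-0.33 to 0.09 on the log2 scale), Fads1 (-0.28 to -0.03) and Fads2 (-0.26 to 0.22). Of the companions, 2 of 15 other sterol genes were lower with 65–79*SE and 1 of 18 other fatty acid genes was higher. Of 6 LXR targets 2 were higher, among them Abca1 at a log2 difference of 0.98 ± 0.21. Of 18 proliferation genes 3 were lower and 1 was higher. Without the libraries labelled 65–79*SE replicates 4–6 in the fit, 5 sterol and 2 fatty acid genes were called here. Without them the counts against PBS were 14 and 8 with 65–79*SE and 11 and 5 with 65–79*PE in replicates 1–3, and 1 and 0 with 65–79*PE in replicates 4–6.

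In replicates 4–6 the calls between the peptides lay in the other direction. With the libraries labelled 65–79*SE, 2 sterol and 2 fatty acid genes were higher than with 65–79*PE, against 5.76% of all genes called higher. These were Acat2 at 1.43 ± 0.13 (adjusted p = 4.4e-08), Idi1 at 0.80 ± 0.12 (adjusted p = 2.4e-05), Fasn at 0.70 ± 0.11 (adjusted p = 6.5e-05) and Elovl6 at 0.66 ± 0.11 (adjusted p = 1.5e-04) on the log2 scale, all 4 being apart in every library. Of the 6 genes lower with 65–79*SE in replicates 1–3, Acat2 was the one called higher here. The log2 difference stayed below 0 for Scd2 at -0.52 ± 0.14 (adjusted p = 0.006), and it was -0.18 ± 0.11 for Fdps, -0.07 ± 0.12 for Scd1, 0.26 ± 0.08 for Mvd and 0.22 ± 0.09 for Stard4, none of these 5 reaching the fold threshold. This comparison sets libraries without an interferon response against libraries with it, so peptide and IFNγ cannot be told apart in it. The medians were 0.24 and 0.38, and the 95% interval lay inside a 1.5-fold change for 20 of 30. Of the companions, 1 of 15 other sterol genes, 1 of 18 other fatty acid genes and 1 of 6 LXR targets were higher. Of 18 proliferation genes 4 were higher. Between the sets, the difference of the peptides was lower in replicates 1–3 for 14 genes, 9 sterol and 5 fatty acid, against 6.01% of all genes. With all 6 replicates pooled, 0 sterol genes and 1 fatty acid gene were called between the peptides.

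**Figure D4:**
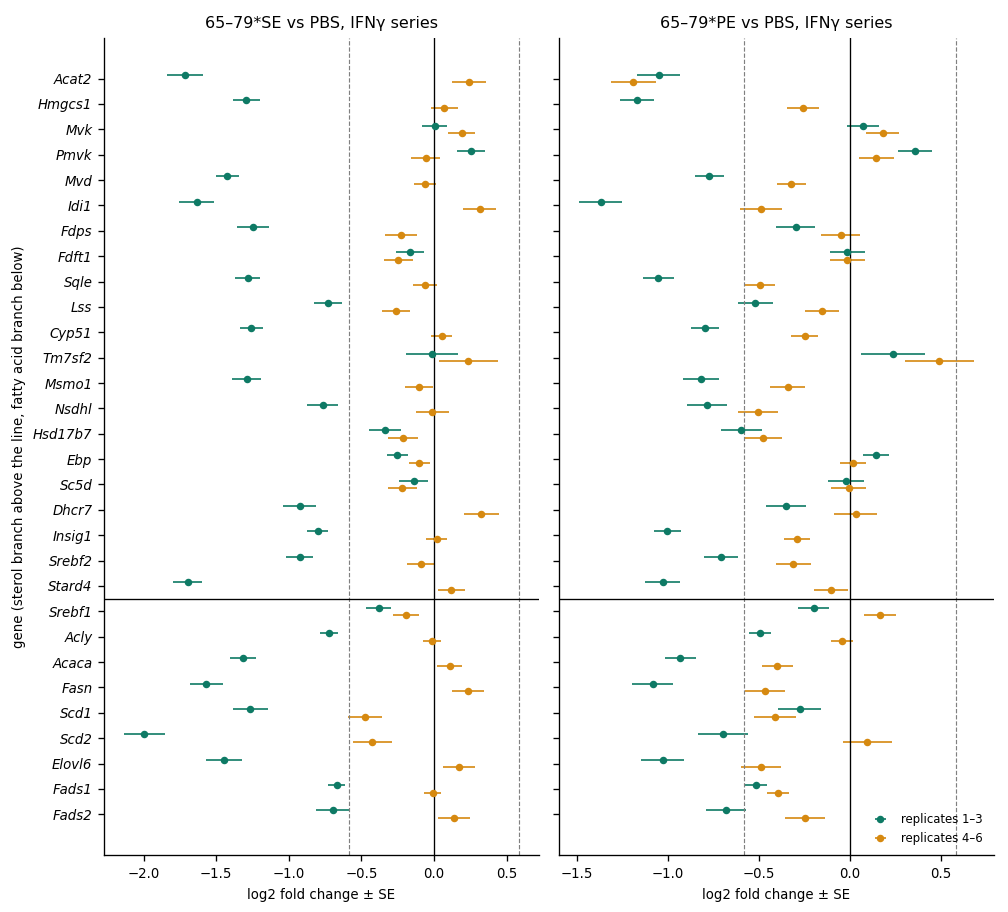
Log2 fold change from PBS with its SE (horizontal axis) of each of the 30 genes (rows) in the IFNγ series, with 65–79*SE left and 65–79*PE right, replicates 1–3 in green and 4–6 in orange, and dashed lines at a fold of 1.5. With 65–79*SE the sterol genes run from -1.72 to 0.26 in replicates 1–3 and from -0.26 to 0.32 in replicates 4–6, and with 65–79*PE from -1.37 to 0.36 and from -1.19 to 0.49.

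In the Il-4 series most of the 30 genes were not called in any comparison. With 65–79*SE in replicates 1–3 edgeR called 0 of 21 sterol and 0 of 9 fatty acid genes, and DESeq2 called 0. At an unadjusted p under 0.05 there were 3 and 0, among 4075 genes in all. Over all 14183 genes tested 6.17% were called in either direction. The medians were 0.06 and -0.05, beside -0.07 over all genes. Mvk and Pmvk, the mevalonate kinases, were not called against PBS in either series. They passed the adjusted p alone here, at log2 changes of 0.33 ± 0.09 (adjusted p = 0.026) and 0.37 ± 0.11 (adjusted p = 0.03). Pmvk also lay above PBS in replicates 1–3 of the IFNγ series, at log2 changes of 0.26 with 65–79*SE and 0.36 with 65–79*PE. With 65–79*PE in replicates 1–3 edgeR again called 0 and 0, and DESeq2 called 0, beside 3.48% of all genes in either direction. At an unadjusted p under 0.05 there were 2 and 1, among 3281 genes in all. The medians with 65–79*PE were 0.08 and -0.18, beside -0.07 over all genes. Without replicate 1 of each group 1 sterol gene was called with 65–79*SE, and with all replicates pooled 2 fatty acid genes were called with 65–79*PE.

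In replicates 4–6 of the Il-4 series the calls lay in the fatty acid branch. With 65–79*SE 1 of 9 fatty acid genes and 0 of 21 sterol genes were lower, where 0.973% of all genes were, and with 65–79*PE 2 of 9 and 0 of 21 were lower, where 2.32% of all genes were. At an unadjusted p under 0.05 the sterol count was 3 with each peptide, where 2916 and 2862 of all 14183 genes tested passed. DESeq2 called 1 and 2 of the 30. Fads2 stood at 66.2, 52.6 and 44.3 CPM in PBS, 14.4, 31.1 and 36.5 CPM with 65–79*SE and 23.3, 28.0 and 33.4 CPM with 65–79*PE, log2 changes of -0.99 ± 0.24 (adjusted p = 0.034) and -0.95 ± 0.24 (adjusted p = 0.028). Srebf1 stood at 88.3, 74.7 and 65.2 CPM in PBS, 50.3, 55.6 and 70.1 CPM with 65–79*SE and 47.6, 48.1 and 54.4 CPM with 65–79*PE, where it was called at -0.61 ± 0.12 (adjusted p = 0.0077). The PBS libraries of both genes lay above every 65–79*PE library. Fasn stood at 172, 202 and 343 CPM in PBS, 119.6, 151 and 209.8 CPM with 65–79*SE and 89.1, 129 and 173 CPM with 65–79*PE, and its log2 change with 65–79*PE was -0.88 ± 0.28 (adjusted p = 0.078). The Fasn libraries of each peptide overlapped those of PBS, yet every peptide library lay below the PBS library of the same replicate number, as also in replicates 1–3. Acly and Fads1 likewise lay below the same-numbered PBS library in every peptide library of both sets. Both peptides are set against the same PBS libraries here, and the labels do not state a pairing by number. The share of all genes with this pattern was not counted. The calls of replicates 4–6 rest on few libraries. Leaving out each replicate in turn gave 0 to 2 fatty acid genes with each peptide, 0 with 65–79*PE without replicate 5 and 1 without replicate 2, 3 or 4. With 65–79*SE the Fads2 call was lost without replicate 2, 3, 4 or 5, and 2 genes were called without replicate 6.

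The remaining Il-4 values of the genes followed in every library were as follows, with most groups overlapping. In replicates 1–3 Hmgcs1 stood at 50.7, 57.8 and 55.9 CPM in PBS, 54.1, 38.7 and 44.5 CPM with 65–79*SE and 60.2, 50.9 and 49.7 CPM with 65–79*PE, and in replicates 4–6 at 100.5, 97.4 and 80.5 CPM in PBS, 95.6, 99.9 and 98.1 CPM with 65–79*SE and 106, 101 and 89.8 CPM with 65–79*PE. Idi1 stood at 3.15, 4.88 and 6.62 CPM in PBS, 3.88, 2.78 and 3.39 CPM with 65–79*SE and 4.28, 4.05 and 4.03 CPM with 65–79*PE in replicates 1–3, and it had 12.9, 10.7 and 11.0 CPM in PBS, 7.17, 8.98 and 11.8 CPM with 65–79*SE and 8.86, 8.199 and 11.4 CPM with 65–79*PE in replicates 4–6. The groups overlapped in each set for both genes. Sqle had 81.3, 89.0 and 82.5 CPM in PBS, 80.5, 68.2 and 79.6 CPM with 65–79*SE and 83.2, 72.7 and 80.3 CPM with 65–79*PE in replicates 1–3, and 90.4, 76.2 and 74.8 CPM in PBS, 73.2, 77.9 and 84.0 CPM with 65–79*SE and 62.97, 77.3 and 74.0 CPM with 65–79*PE in replicates 4–6. Cyp51 had 58.1, 59.1 and 54.7 CPM in PBS, 60.3, 55.1 and 57.8 CPM with 65–79*SE and 68.2, 59.0 and 61.2 CPM with 65–79*PE in replicates 1–3, and 115, 73.7 and 58.2 CPM in PBS, 89.1, 75.9 and 72.1 CPM with 65–79*SE and 77.4, 78.2 and 65.4 CPM with 65–79*PE in replicates 4–6. PBS replicate 4 stands above the other Cyp51 libraries. Sqle with 65–79*SE in replicates 1–3 was below PBS in all 3 libraries, and neither gene was called. Insig1 had 69.4, 56.3 and 54.9 CPM in PBS, 72.5, 39.5 and 48.7 CPM with 65–79*SE and 81.7, 53.2 and 53.1 CPM with 65–79*PE in replicates 1–3, and 96.8, 97.4 and 83.1 CPM in PBS, 118, 96.2 and 103 CPM with 65–79*SE and 92.7, 103 and 92.0 CPM with 65–79*PE in replicates 4–6. Srebf2 had 201, 197 and 193 CPM in PBS, 184, 177 and 208 CPM with 65–79*SE and 191, 180.2 and 193 CPM with 65–79*PE in replicates 1–3, and 111, 97.2 and 85.2 CPM in PBS, 76.3, 82.6 and 91.6 CPM with 65–79*SE and 72.6, 67.0 and 72.7 CPM with 65–79*PE in replicates 4–6. Srebf2 was below PBS in all 3 libraries with 65–79*PE in replicates 4–6, where it passed the adjusted p alone at -0.47 ± 0.10 (adjusted p = 0.012).

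In the fatty acid branch of the Il-4 series, Srebf1 in replicates 1–3 had 124, 121 and 109.8 CPM in PBS, 121, 122 and 137 CPM with 65–79*SE and 122, 121 and 125 CPM with 65–79*PE. Fads2 had 62.6, 56.8 and 50.1 CPM in PBS, 49.98, 45.8 and 62.0 CPM with 65–79*SE and 49.2, 42.3 and 46.0 CPM with 65–79*PE in the same libraries. Fasn had 367, 556 and 637 CPM in PBS, 343, 419.5 and 507 CPM with 65–79*SE and 324, 377 and 424 CPM with 65–79*PE. None of these 3 was called in that set, though Fads2 with 65–79*PE was below PBS in all 3 libraries. Scd1 had 70.3, 44.7 and 29.4 CPM in PBS, 70.0, 45.8 and 46.2 CPM with 65–79*SE and 79.2, 55.7 and 58.0 CPM with 65–79*PE in replicates 1–3, and 96.1, 78.4 and 48.7 CPM in PBS, 83.9, 75.0 and 64.4 CPM with 65–79*SE and 85.4, 73.3 and 67.5 CPM with 65–79*PE in replicates 4–6. Its PBS libraries alone spanned all peptide values of their set but the highest of replicates 1–3. Scd2 had 597, 426 and 326 CPM in PBS, 546, 447 and 511 CPM with 65–79*SE and 602, 516 and 538 CPM with 65–79*PE in replicates 1–3, and 529, 529 and 365 CPM in PBS, 646, 649 and 729 CPM with 65–79*SE and 506, 547 and 565 CPM with 65–79*PE in replicates 4–6. Fads1 had 266, 270.3 and 268 CPM in PBS, 262, 251 and 264 CPM with 65–79*SE and 249.5, 227 and 235 CPM with 65–79*PE in replicates 1–3, and 250.4, 205 and 179.7 CPM in PBS, 177, 184 and 167 CPM with 65–79*SE and 180.0, 167 and 149.6 CPM with 65–79*PE in replicates 4–6. Scd2 with 65–79*SE in replicates 4–6 was above PBS and Fads1 with 65–79*PE in replicates 1–3 was below PBS in all 3 libraries, neither being called, at 0.51 ± 0.18 and -0.18 ± 0.11 on the log2 scale. Fads1 with 65–79*SE in replicates 1–3 was also below PBS in all 3 libraries and was not called.

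Between the peptides the Il-4 series gave no call in either set. EdgeR called 0 of the 30 in replicates 1–3 and in replicates 4–6, as it called 0% and 0% of all genes. At an unadjusted p under 0.05 there were 0 of the 30 in replicates 1–3 and 3 in replicates 4–6, among 570 and 1321 genes in all, and DESeq2 called none of the 30. The 95% interval of the difference lay inside a 1.5-fold change for 24 and 23 of the 30 genes. The interval was -0.50 to 0.04 on the log2 scale for Hmgcs1 and -0.43 to 0.78 for Fasn in replicates 1–3, so a larger difference in Fasn was within reach of these data. Between the replicate sets the change with 65–79*SE differed for 1 of the 30, Pmvk at 0.77 ± 0.15 (adjusted p = 0.018). Of all genes 3.91% were called in either direction and 0.747% higher. By edgeR none of the 30 differed between the sets for 65–79*PE, with 4 at an unadjusted p under 0.05, or between the peptides, with 1, where 0.00705% and 0% of all genes were called, and DESeq2 was not run on these differences. Few companion genes were called in the Il-4 series. They were Mbtps2, a protease that activates SREBPs, at -0.61 ± 0.15 with 65–79*SE in replicates 1–3, Lbr at -0.59 ± 0.13 in replicates 4–6, and Scap, the SREBP escort, at -0.75 ± 0.10 and the lipoprotein Apoe at -1.23 ± 0.33 with 65–79*PE in replicates 4–6. Of the proliferation genes 2 of 18 were lower with 65–79*SE in replicates 4–6, with a median of -0.60, and none in the other 3 comparisons with PBS.

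Whether the response of the 30 genes differed between the series was tested in a model of all 36 libraries, on 17201 genes. In replicates 1–3 the change with 65–79*SE was lower in the IFNγ than in the Il-4 series for 20 genes, 14 sterol and 6 fatty acid, with none higher, against 10.3% of all genes. The log2 difference was -2.26 ± 0.30 (adjusted p = 7.3e-07) for Acat2, -2.22 ± 0.24 (adjusted p = 2.7e-08) for Scd2, -1.70 ± 0.14 (adjusted p = 8.5e-11) for Mvd and -1.61 ± 0.14 (adjusted p = 4.3e-10) for Stard4. With 65–79*PE it was lower for 13, 11 sterol and 2 fatty acid, against 6.68% of all genes. Acat2 led at -1.51 ± 0.29 (adjusted p = 3.1e-04), with Hmgcs1 at -1.15 ± 0.16 (adjusted p = 1.8e-06) and Nsdhl at -1.15 ± 0.23 (adjusted p = 4.8e-04), and the fatty acid genes were Scd2 at -1.01 ± 0.24 (adjusted p = 0.0023) and Acaca at -0.88 ± 0.14 (adjusted p = 1.3e-05). Each series enters this test with its own PBS group.

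Few genes differed between the series in replicates 4–6. With 65–79*SE, whose IFNγ libraries lack the interferon response, 2 did, Scd2 at -0.94 ± 0.24 (adjusted p = 0.015) and Fads2 at 1.12 ± 0.28 (adjusted p = 0.014), against 5.24% of all genes in either direction. With 65–79*PE 3 did, Acat2 at -0.97 ± 0.30 (adjusted p = 0.026), Hsd17b7 at -0.63 ± 0.18 (adjusted p = 0.014) and Srebf1 at 0.71 ± 0.16 (adjusted p = 0.0016), against 11.6%. The difference of the peptides was lower in the IFNγ series for 6 genes in replicates 1–3, namely Mvd, Fdps, Ebp, Dhcr7, Stard4 and Scd2, against 0.826% of all genes. In replicates 4–6 it differed for 4, with Acat2 at 1.78 ± 0.31 (adjusted p = 8.2e-05), Idi1 at 0.88 ± 0.24 (adjusted p = 0.0096) and Elovl6 at 0.94 ± 0.27 (adjusted p = 0.013) higher and Scd2 at -0.78 ± 0.24 (adjusted p = 0.018) lower in the IFNγ series, against 14.2% of all genes in either direction. Replicates are named as biological, yet all are cultures of a single line, so the p-values measure the spread between cultures and not between animals.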

How the data were processed

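RNA-seq libraries of RAW264.7 cells were analysed from the 2 tables of raw counts that the authors deposited, with 18 libraries per table. To make them, the authors ran featureCounts on reads with a unique alignment, with a Gencode annotation on GRCm38.p5, and the submitters' processing notes name DESeq2 1.16.1 and R 3.4.1. The aligner and the strand setting of the counting are not given in the sources used here. From these counts, edgeR 4.0.16 (R 4.3.3, limma 3.58.1) was run with TMM normalization, its filter on low counts and the quasi-likelihood test. The model of each table had 6 cells (group by replicate set) and 12 residual degrees of freedom. Calls needed an adjusted p (Benjamini-Hochberg, over the 16845 or 14183 genes tested) under 0.05 together with a fold change over 1.5, the thresholds of the study. Differences between replicate sets were tested as interactions, and differences between the series in a joint model of 36 libraries. CPM scale counts to the TMM-adjusted library total, so levels were not set against each other across tables. Levels per kb divide CPM by the joined length of all exons annotated for the gene, whether or not these cells use them. That length came from a Gencode release other than the one the authors counted on. At the depth of these libraries 3 reads correspond to 0.054 to 0.17 CPM, below every member. The members and lists were chosen with earlier results of these data known. Values are given in every library for 12 members fixed by name (Hmgcs1, Sqle, Idi1, Cyp51, Insig1, Srebf2, Srebf1, Fasn, Scd1, Scd2, Fads1 and Fads2) and for up to 3 called members of each branch with the largest change. Of each companion list (other sterol, other fatty acid, LXR target, proliferation), counts and up to 3 called genes are given, and some companion genes are not reported here by name. Alternatives were DESeq2 1.42.0, RLE size factors, other filters, no fold threshold, pooled replicates, each replicate set alone, a replicate block and leaving out each replicate. The fit without the libraries labelled 65–79*SE replicates 4–6 was added after seeing the data. The procedure was tested on simulated data.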

Additional observations from a re-analysis of the deposited data

Results flagged for a closer look

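In groups of 6 libraries, 192 were searched for a library standing apart from the others by Dixon's 95% criterion, and 5 were found. The criterion flags about 1 in 20 groups drawn from a single normal spread. These groups join both replicate sets, so that rate need not hold here. Cyp51 in PBS replicate 4 of the Il-4 series stood at 115 CPM, the other 5 libraries lying between 54.7 and 73.7 CPM. Msmo1 in the same library stood at 156 CPM, above 90.8 to 112 CPM in the others. Elovl6 in PBS replicate 1 of the Il-4 series was low at 15.5 CPM, against 25.6 to 30.3 CPM. Fads2 in 65–79*PE replicate 4 of the IFNγ series stood at 35.8 CPM, above 21.4 to 26.2 CPM. Lss in PBS replicate 6 of the IFNγ series stood at 68.5 CPM, above 48.6 to 55.3 CPM.

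Several contrasts differed between the replicate sets by the test of the difference itself. In the IFNγ series this held for 21 of the 30 genes for 65–79*SE against PBS, for 6 for 65–79*PE against PBS and for 14 between the peptides. The shares of all genes, in either direction, were 22.8%, 5.74% and 16.6% in the same order. In the Il-4 series it held for 1 gene, Pmvk, for 65–79*SE against PBS, beside 3.91% of all genes.

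Contrasts also differed between the IFNγ and Il-4 series. In replicates 1–3 this held for 20 of the 30 genes for 65–79*SE against PBS, 13 for 65–79*PE against PBS and 6 between the peptides. The shares of all genes, in either direction, were 19.7%, 13.4% and 2.84%. In replicates 4–6 the counts were 2, 3 and 4 of the 30 in the same order, near the 5.24%, 11.6% and 14.2% of all genes. The libraries labelled 65–79*SE replicates 4–6 of the IFNγ series, which lack the interferon response, enter 2 of the IFNγ differences between replicate sets and 2 of the 3 differences between series in replicates 4–6, and their part was not tested apart from the replicate set.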

How the results depend on the processing

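No called value of the members fixed by name changed sign in any alternative, and the cause of the moves given here was not tested. Signs of the other members were not followed through the alternatives. Between the peptides in the IFNγ series, Acat2 was called at -0.66 in replicates 1–3 and 1.43 in replicates 4–6 on the log2 scale. A pooled estimate, which serves both sets, cannot share the sign of both values. Pooling the replicates did turn 2 branch medians of the peptide difference in the IFNγ series, the fatty acid median of replicates 1–3 from -0.38 to 0.12 and the sterol median of replicates 4–6 from 0.24 to -0.08 on the log2 scale. Medians nearer to 0 crossed it in other alternatives, both among Il-4 comparisons and for 65–79*SE against PBS in IFNγ replicates 4–6. With the 6 replicates pooled and the replicate set as a term, the IFNγ counts became 7 sterol and 2 fatty acid genes for 65–79*SE against PBS, 8 and 3 for 65–79*PE against PBS, and 0 and 1 between the peptides, while in the Il-4 series the fatty acid count became 0 for 65–79*SE in replicates 4–6 and 2 for 65–79*PE in replicates 1–3. Without the fold threshold, 1 fatty acid gene was called for 65–79*SE and 11 sterol and 5 fatty acid genes for 65–79*PE in replicates 4–6 of the IFNγ series. Of all 16845 genes tested, 763 and 4338 passed there. Between the peptides the counts without that threshold were 8 and 6 in replicates 1–3 and 8 and 7 in replicates 4–6, beside 3036 and 5378 of all genes. In the Il-4 series they were 2 sterol genes for 65–79*SE in replicates 1–3 and 1 for 65–79*PE in replicates 4–6. Of all 14183 genes tested, 1937 and 792 passed in these. With each replicate set fitted alone, 0 fatty acid genes were called in replicates 4–6 of the Il-4 series with either peptide. RLE size factors and a minimum of 10 counts in every library each gave 1 fatty acid gene for 65–79*PE in replicates 4–6 of the Il-4 series, and RLE gave 3 genes in place of 6 whose peptide difference differed between the series in replicates 1–3. Without a low count filter, the change with 65–79*SE differed for 3 genes between the replicate sets of the Il-4 series and for 4 between the series in replicates 4–6.

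Leaving out each replicate in turn gave 0 to 2 fatty acid genes for 65–79*SE in replicates 4–6 of the IFNγ series (2 without replicate 4), 3 to 5 fatty acid genes for 65–79*PE in replicates 1–3 and 1 to 2 sterol genes for 65–79*PE in replicates 4–6. In the Il-4 series it gave 0 to 1 sterol genes for 65–79*SE in replicates 1–3 and 0 to 2 fatty acid genes for each peptide in replicates 4–6. With DESeq2 all 24 counts of members stayed within 1.5 times. The labels do not say that a replicate number marks a shared culture or day. Deviations of same-numbered libraries from their group means correlated between -0.13 and 0.13 in the IFNγ table, where 8 of 18 libraries correlated best with their own number. In the Il-4 table they correlated between -0.11 and 0.40, over 0.1 in 12 of 18 pairs, and 16 of 18 libraries correlated best with their own number, a hint of pairing from the data that not every pair bears out. With the replicate number as a block, the counts of called members stayed within 1.5 times in all 24 cases, and the change that differed between replicate sets of the Il-4 series held for 2 genes with 65–79*SE and 1 with 65–79*PE, and that between the series with 65–79*SE in replicates 4–6 for 4. The block changed the call of 1 member, Fasn with 65–79*PE in replicates 4–6 of the Il-4 series, from -0.88 ± 0.28, adjusted p = 0.078 to -0.86 ± 0.09, adjusted p = 5.9e-05, so 3 fatty acid genes were called there in place of 2.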
